A study of Mus musculus with 23 samples.

Results

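The spleen response to oil palm phenolics (OPP), a water-soluble phenolic extract of the oil palm fruit, was measured in 8 of the 23 samples of the series. These were the 4 spleen samples titled as treatment and the 4 titled as control, taken by their titles, with the non-normalised intensities of these arrays. The mice were male BALB/c, an inbred albino strain with no engineered allele, and were 12 weeks old according to the labels. The treated group drank OPP at 1500 ppm gallic acid equivalent and the control group drank distilled water, both freely, on the same normal diet, for 6 weeks, and fasted overnight before dissection. They were kept 5 to a cage, and the drinking fluid was given by cage, so cage effects cannot be told apart from treatment. The cage of each array is not given in the sources used here. The samples of highest RNA integrity were used, and the study removed outlier samples by clustering, with no account of whether a spleen was among them. Each array held RNA of a whole spleen sample from 1 mouse on a first-version Illumina MouseRef-8 bead array, which gives each probe 1 intensity and a detection p against negative control probes.

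The spleen filters blood and houses immune cells. Its red pulp holds macrophages that remove aged red cells, a reserve of platelets and monocytes, and, in the mouse, sites where red cells, granulocytes and platelet-forming megakaryocytes still develop. Its white pulp holds B cells and T cells arranged by chemokines of the local stroma, and a mesh of collagen supports the whole organ. An array of a whole spleen measures the sum of these, so that fewer cells of a type and less RNA per cell cannot be told apart in any result given here.

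Of the 24048 probes, 8582 were tested, namely those detected (detection p below 0.01) by 3 or more of the OPP or of the control arrays. Values are log2 intensities after background correction and quantile normalisation. Between 8318 and 8957 probes were detected per array and the correlation between arrays ran from 0.958 to 0.991. Platform annotation named 7217 of the tested probes. The tissue label was checked against markers. B cell identity genes were tested for 18 of the 20 on the array and erythroid genes for 33 of 37, while 2 of 9 liver genes and 0 of 6 cardiac muscle genes passed the same filter. All 18 genes of the exocrine pancreas on the array were also tested.

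OPP and control spleens were compared by limma with n = 4 mice in each group, and a change is the OPP mean minus the control mean on the log2 scale, given with its standard error (SE). In all, 145 probes were called, meaning an unadjusted p below 0.01 as used in the study, which is 1.69% of those tested. Of these, 100 were higher in OPP spleens (1.17%) and 45 lower (0.524%), with median folds of 1.53 and 1.32, and 22 differed by more than 2-fold. No probe passed the Benjamini-Hochberg adjustment at 0.05 in limma, where the smallest adjusted p was 0.473, while 593 probes (6.91%) lay under an unadjusted p of 0.05. The groups did not overlap in 309 probes (3.6%), which include 109 of the 145 called. Over all tested probes 49.3% were higher in OPP spleens, 50.7% were lower and the median change was 0.00. These shares, with 1.17% called higher and 0.524% called lower, are the background for every list below.

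**Figure D1:**
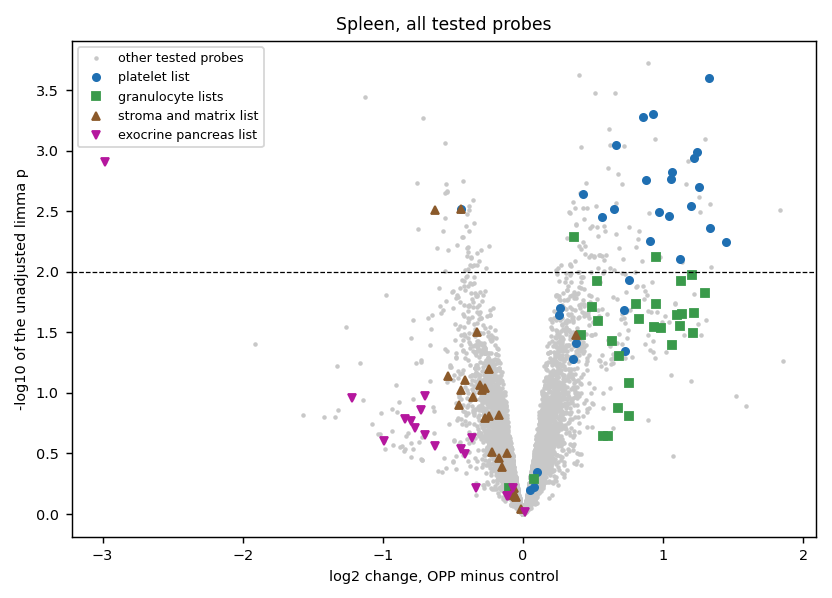
Each point is 1 of the 8582 tested spleen probes, with the log2 change of OPP minus control on the x axis and the negative log10 of the unadjusted limma p on the y axis, and the dashed line marks an unadjusted p of 0.01. Platelet and granulocyte genes lie mostly to the right, while stroma and matrix genes and exocrine pancreas genes lie mostly to the left.

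The count of calls depended on single spleens. Without control 3 the call was made for 304 probes, of which 206 were higher and 98 lower, and without OPP 2 for 72 probes, of which 49 were higher and 23 lower. Without control 4 more probes were lower than higher, with 74 and 53 respectively. Without control 1, 15 probes passed the adjusted threshold in limma, among them Npy, Zyx and Lgalsl outside the platelet genes. When the arrays were scaled to a common median in place of quantile normalisation, 110 called probes were higher and 7 lower, a share of 94.0% against 69.0% in the main comparison, and 15 passed the adjustment. In a fit of all 23 arrays of the series 24 spleen probes did. With median scaling the median change over all tested probes was 0.06, against -0.002 in the main comparison.

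**Figure D2:**
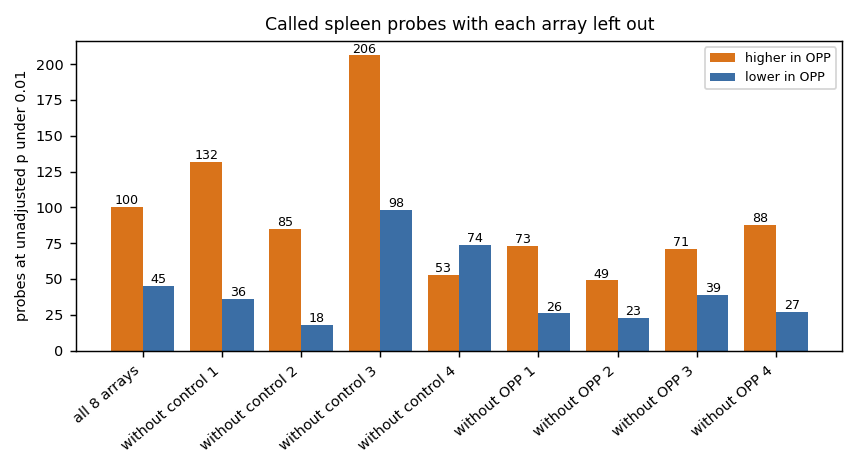
Bars give the number of spleen probes at an unadjusted limma p under 0.01, higher or lower in OPP, with all 8 arrays and after leaving out each array singly. The counts without control 3 (206 and 98) and without OPP 2 (49 and 23) lie farthest apart, and without control 4 the order of the directions turns (53 higher, 74 lower).

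The platelet and granulocyte genes are the part of this response already known, and they are given here only as levels that other results may move with. Of 46 megakaryocyte and platelet genes listed, 31 were tested, 30 were higher and 20 were called higher (1.17% of all probes were), with a median change of 0.86. The median deviation of these genes from the control mean was between -0.40 and 0.53 on the control arrays, highest in control 1, and between 0.58 and 1.03 on the OPP arrays, highest in OPP 2. Their summed level was 18900 to 28040 intensity units in controls and 29480 to 35020 with OPP. All 18 tested neutrophil granule genes were higher, with 1 called and a median of 1.02, but their median deviation ran from -0.97 in control 4 to 0.97 in control 3 within the control group and from 0.51 to 1.79 in the OPP group, so the groups overlapped, as did their summed levels of 42660 to 128700 and 113000 to 184100 intensity units. The mast cell and basophil genes (median 0.66, 6 of 6 higher) lay between -0.24 and 0.12 in controls and between 0.33 and 0.55 with OPP, but this median was 0.41 without background correction and 0.09 with no detection filter. Vwf, the von Willebrand factor gene, had a change of 1.33 (SE 0.24).

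**Figure D3:**
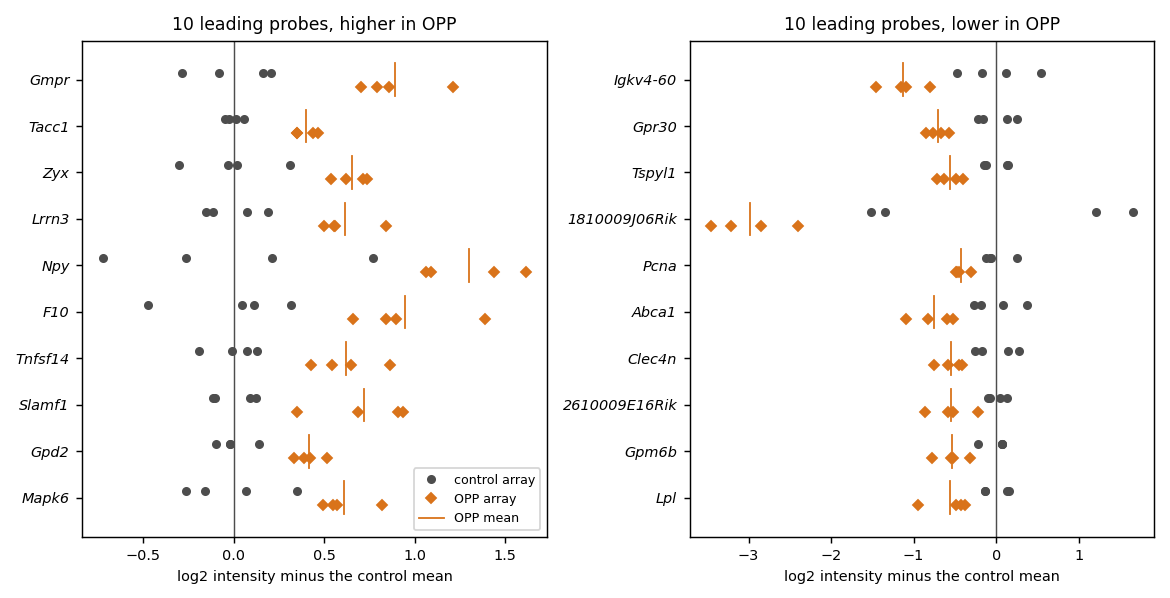
Points are the 4 control and 4 OPP arrays, as log2 intensity minus the control mean of the probe, for the 10 probes of smallest p in each direction outside the platelet and granulocyte lists, and short lines mark OPP means. The groups do not overlap for any of these 10 higher and 10 lower probes.

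Among the genes outside those lists, the highest change of the leading 15 belonged to Npy, which encodes neuropeptide Y, a sympathetic transmitter that rodent megakaryocytes and platelets also hold. Its level was 9.01, 7.52, 8.45 and 7.98 on control arrays 1 to 4 and 9.30, 9.85, 9.33 and 9.68 on OPP arrays 1 to 4. Every OPP array lay above every control array, with control 1 the nearest, and the change was 1.3 (SE 0.28), or 2.46-fold. F10, the gene of coagulation factor X, which is made mainly in the liver, was at 6.52, 5.73, 6.32 and 6.25 on control arrays 1 to 4 and 7.10, 7.59, 7.04 and 6.86 on OPP arrays 1 to 4. The groups did not overlap and the change was 0.94 (SE 0.20). Gmpr, whose product returns guanosine monophosphate to the inosine pool, had the smallest p of all probes, with a change of 0.89 (SE 0.16), and it was detected on 2 of the 4 control arrays and all 4 OPP arrays.

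Zyx encodes zyxin, which binds actin filaments at focal adhesions. Its level was 11.55, 11.21, 11.26 and 10.94 on control arrays 1 to 4 and 11.86, 11.96, 11.78 and 11.98 on OPP arrays 1 to 4, with a change of 0.65 (SE 0.12). It led the list of actin cytoskeleton and adhesion genes, of which 29 of 35 tested members were higher, 6 were called higher and none lower, against 1.17% of all probes called higher, and the median change was 0.14. The other called members were Sh3bgrl3 (0.36, SE 0.09), the glia maturation factor gene Gmfg (0.37, SE 0.10), the transgelin family gene Tagln2 (0.34, SE 0.09), the vinculin gene Vcl (0.44, SE 0.13) and the LIM-domain gene Fhl1 (0.59, SE 0.18). Probes named only by the study's own list of called genes did not enter the list counts. Among such probes, that of Arpc5 was called lower (-0.54, SE 0.16) and that of Tpm4 higher (0.43, SE 0.12). The groups did not overlap in 6 of the 35 genes, against 3.6% of all probes. The beta-actin gene Actb had 0.27 (SE 0.12) at its brightest probe and 0.14 and 0.15 at its other 2 probes, which did not reach an unadjusted p of 0.05. Itgb7, an integrin subunit of gut-homing lymphocytes, and the parvin gene Parva had changes of -0.37 and -0.36 at unadjusted p values between 0.01 and 0.05.

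Atp2a3, a calcium pump of the endoplasmic reticulum found in platelets and lymphocytes, had a change of 0.41 (SE 0.10) with no overlap of the groups. Mapk6, which encodes an atypical MAP kinase, was at 8.44, 7.94, 8.16 and 7.83 on control arrays 1 to 4 and 8.59, 8.91, 8.64 and 8.67 on OPP arrays 1 to 4. OPP 2 was the highest array and control 1 the highest control, and the change was 0.61 (SE 0.14). Tnfsf14, whose product LIGHT is a TNF family ligand of lymphocytes and platelets, had a change of 0.62 (SE 0.13), with levels of 5.88 to 6.20 in controls and 6.49 to 6.93 with OPP.

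Both genes belong to a list of TNF, Toll and interleukin signalling, in which 17 of 28 tested genes were higher, with a median of 0.06. Of the 28, 4 were called higher and 1 was called lower, against 1.17% and 0.524% of all probes. The other higher calls were the stress kinase gene Mapkapk2 (0.38, SE 0.10) and the transcription factor gene Nfil3 (0.51, SE 0.15), and the lower call was the kinase gene Map2k1 (-0.35, SE 0.11). Myd88, the adaptor of Toll-like receptors, and Irak3, which restrains the same pathway, had changes of 0.33 and 0.43 at unadjusted p values between 0.01 and 0.05, with no overlap of the groups. Nfkb2, a subunit of the transcription factor NF-kappaB, lay between the same p values in the other direction at -0.38 (SE 0.16). The receptors Tlr2, Tlr4 and Tlr7 had changes of 0.09, 0.12 and -0.14. The groups did not overlap in 8 of the 28 genes, against 3.6% of all probes.

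Slamf1, a receptor of activated lymphocytes that also marks blood stem cells and megakaryocytes, was called at both tested probes. The dimmer of them passed the detection filter through the OPP arrays only. At the brighter probe its level was 7.42, 6.66, 6.57 and 6.93 on control arrays 1 to 4 and 7.35, 7.61, 7.58 and 8.06 on OPP arrays 1 to 4, and the change was 0.75 (SE 0.21). Here control 1 lay within the OPP range. At the dimmer probe the change was 0.72 (SE 0.16), but this probe was detected on 0 control arrays and 3 OPP arrays. Set against the lowest detected signal of each control array, the OPP mean was at least 1.25-fold higher. In the list of haematopoietic progenitor genes 12 of 16 tested genes were higher, with a median of 0.06, and the other called gene was Gata2 (0.36, SE 0.10), a transcription factor of stem cells and mast cells. Without control 2, control 4 or OPP 4 neither Gata2 nor the brighter Slamf1 probe was called. Tal1 and Zfpm1, regulators of red cell and megakaryocyte development, had changes of 0.06 (SE 0.10) and -0.14 (SE 0.12).

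Genes of prostaglandin and leukotriene synthesis, with receptors and annexins of the same pathway, were higher in 13 of 18 tested, with a median of 0.28, 4 called higher (1.17% of all probes were) and none lower. Tbxas1, the thromboxane synthase of platelets and macrophages, was at 9.65, 9.19, 9.05 and 8.96 on control arrays 1 to 4 and 9.69, 9.82, 9.61 and 9.99 on OPP arrays 1 to 4, with a change of 0.57 (SE 0.15), and its second probe gave 0.52 (SE 0.14). Control 1 reached the OPP values at the first probe but not at the second. The other calls were the platelet lipoxygenase gene Alox12 (1.12, SE 0.34), the microsomal glutathione transferase gene Mgst1 (0.54, SE 0.16) and the prostacyclin receptor gene Ptgir (0.58, SE 0.18). A probe that only the study's own list of called genes names as Ptgs1, the cyclooxygenase of platelets, had a change of 0.44 (SE 0.13). Alox5ap, needed for leukotriene synthesis in neutrophils and monocytes, missed the threshold at 0.71 (SE 0.23), although its groups did not overlap. Without control 4 or OPP 2 neither Tbxas1, at its first probe, nor Mgst1 was called. Without the genes that the platelet or granulocyte lists also hold, the median of this list was 0.19.

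Glucose uptake and glycolysis genes were higher in 13 of 16 (49.3% of all probes were), with 3 called higher against 1.17% of all probes, none lower and a median of 0.17. Slc2a3, a high-affinity glucose transporter of neurons, platelets and white cells, was at 9.59, 8.94, 9.44 and 8.89 on control arrays 1 to 4 and 9.76, 10.16, 9.75 and 10.01 on OPP arrays 1 to 4. OPP 2 was again the highest array, the groups did not overlap and the change was 0.71 (SE 0.17). Gpd2, the mitochondrial glycerol phosphate dehydrogenase that carries glycolytic electrons to the respiratory chain, had a change of 0.41 (SE 0.09), but its second probe gave 0.00 (SE 0.09). Pkm, the pyruvate kinase gene, had a change of 0.55 (SE 0.16). Gapdh reached 0.37 (SE 0.13) at its brightest probe and 0.17 and 0.03 at the others, and Ldha had 0.13 (SE 0.11).

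For 59 of the 100 probes called higher, control 1 was the highest control array, against 23.2% of all tested probes, and for 50 of them OPP 2 was the highest OPP array, against 24.5%. Among the 69 of these probes that are not in the platelet or granulocyte lists the counts were 34 and 37. Control 1 and OPP 2 are also the arrays with the highest platelet list deviation in their groups, 0.53 and 1.03. By summed level of that list the highest OPP array was OPP 4 (35020 intensity units, against 33440 in OPP 2). OPP 2 also had the highest deviation of the neutrophil granule list, 1.79. Of the leading genes, Npy, F10, Zyx, Mapk6, Lgalsl, Slc2a3, Atp2a3, Gpd2 and Sh3bgrl3 had control 1 as the highest control, while for Gmpr, Tnfsf14 and the dimmer Slamf1 probe it was control 3, for Tacc1 control 4 and for Lrrn3 control 2. The part that platelet content has in these results was not tested.

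Monocyte genes were all higher, 12 of 12 (49.3% of all probes were), with a median of 0.22. Of these, 1 was called higher, against 1.17% of all probes, and 5 lay under an unadjusted p of 0.05, against 4.53%. The call was Clec4d, a C-type lectin receptor of monocytes and neutrophils, at 6.76, 6.64, 6.65 and 6.30 on control arrays 1 to 4 and 6.83, 7.30, 7.58 and 7.31 on OPP arrays 1 to 4. Control 1 was the highest control and lay just below OPP 1, and the change was 0.67 (SE 0.17). The others were F13a1 (0.70, SE 0.27), Chil3 (0.92, SE 0.39), the Fc receptor gene Fcgr4 (0.31, SE 0.14) and Ly6c1 (0.24, SE 0.11). The monocyte receptors Cd14 and Cx3cr1 had changes of 0.01 and 0.01. The median deviation of the list was -0.18 to 0.12 in controls and 0.14 to 0.40 with OPP, and the array order at both ends, control 4 lowest and OPP 2 highest, was that of the neutrophil list.

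Macrophage genes of the red pulp and marginal zone did not move together. Of 23, 8 were higher (49.3% of all probes were) and 1 was called lower (0.524% were), with a median of -0.04. Clec4n, which encodes the fungal-sensing lectin Dectin-2, was the call among them, at 10.78, 11.32, 11.19 and 10.88 on control arrays 1 to 4 and 10.45, 10.29, 10.59 and 10.63 on OPP arrays 1 to 4. The groups did not overlap, the change was -0.55 (SE 0.13), and it was lower while Clec4d, of the same lectin family, was higher. Slc40a1, the iron exporter of red pulp macrophages, and the lysosomal protease gene Ctsb had changes of 0.08 (SE 0.14) and -0.05 (SE 0.12). Dendritic cell genes were lower in 12 of 12 (50.7% of all probes were), with a median of -0.13 and none called at either threshold. The member of smallest p, Cd83, had -0.32 (SE 0.21).

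Stroma and extracellular matrix genes were lower in 24 of 25, against 50.7% of all probes, with a median of -0.24 and 2 called lower, where 0.524% of all probes were. Col3a1, the collagen of reticular fibres, was at 9.23, 9.79, 9.14 and 9.87 on control arrays 1 to 4 and 8.86, 8.83, 8.87 and 8.97 on OPP arrays 1 to 4. The OPP arrays lay close together and below the lowest control, and the change was -0.63 (SE 0.16). Sparc, a matrix glycoprotein that platelets also carry, was at 10.45, 10.74, 10.36 and 10.81 on control arrays 1 to 4 and 10.23, 9.99, 10.23 and 10.13 on OPP arrays 1 to 4, with a change of -0.45 (SE 0.12). It was the only member of the platelet list that was lower, and its call was lost without control 2 or OPP 2 (range over arrays left out in turn, -0.52 to -0.38). Col6a1 had -0.33 (SE 0.13), and Col1a1, Col1a2, Dcn and Serpinh1, a collagen chaperone, had -0.44, -0.54, -0.46 and -0.42 with unadjusted p values above 0.05. The exception was Timp3, an inhibitor of matrix proteases, with 0.38 (SE 0.15). The median deviation of the list was -0.19 to 0.26 in controls and -0.39 to -0.06 with OPP, so that the groups overlapped, and controls 2 and 4 were the high controls. Smooth muscle and capsule genes (4 of 9 higher, median -0.02) and endothelial genes (9 of 16 higher, median 0.03) had 0 calls, with the smoothelin gene Smtn at 0.32 (SE 0.13) and the endothelial adhesion gene Esam at 0.30 (SE 0.15).

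Lipid uptake and efflux genes were lower in 11 of 14 (50.7% of all probes were), with a median of -0.11 and 2 called lower, against 0.524% of all probes. Abca1, the cholesterol exporter of macrophages, was at 6.09, 6.44, 6.17 and 6.72 on control arrays 1 to 4 and 5.52, 5.26, 5.83 and 5.76 on OPP arrays 1 to 4. It was detected on 3 control arrays and 0 OPP arrays, the change was -0.76 (SE 0.18), and against the lowest detected signal of the OPP arrays the control mean was at least 1.28-fold higher. Lpl, the lipase that releases fatty acids from lipoproteins, was at 9.21, 9.19, 8.92 and 8.92 on control arrays 1 to 4 and 8.68, 8.11, 8.57 and 8.63 on OPP arrays 1 to 4, with a change of -0.56 (SE 0.14) and no overlap. The lysosomal lipase gene Lipa and the cholesterol-binding Npc2 had -0.31 (SE 0.14) and -0.24 (SE 0.11). Lpl is also an adipocyte gene, and of 7 tested adipocyte genes 5 were lower with a median of -0.35, which was -0.19 without OPP 2, -0.60 without control 3 and -0.11 with no detection filter. The adipokine gene Adipoq was detected on 3 control arrays and 1 OPP array, with -0.66 (SE 0.34), and the summed level of the adipocyte genes was 2166 to 3978 intensity units in controls and 2154 to 2838 with OPP. The part of attached fat in the Lpl result was not tested.

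Exocrine pancreas genes, which spleen cells do not normally express, were present on every array. The summed level of the 18 genes was between 168900 and 483700 intensity units in controls and between 131500 and 309900 with OPP, and in the controls their median deviation ran from -1.11 in control 2 to 0.92 in control 1. Of the 18 genes, 17 were lower (50.7% of all probes were) and 1 was called lower (0.524% were), with a median of -0.66. This median was -0.20 without control 1, -1.03 without control 2 and -0.31 without OPP 3. The call, 1810009J06Rik, was at 7.20, 7.03, 9.76 and 10.21 on control arrays 1 to 4 and 5.70, 5.34, 5.09 and 6.15 on OPP arrays 1 to 4, with a change of -2.98 (SE 0.67) and detection on all 4 control arrays but 1 OPP array. It did not follow the other pancreas genes, since its high arrays were controls 3 and 4, while the other 17 had their highest control mostly in control 1. Prss1, Rnase1 and Cela3b had changes of -0.73, -0.80 and -0.77 with unadjusted p values above 0.1.

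Pcna, the sliding clamp of DNA polymerases, was at 12.25, 12.31, 12.62 and 12.30 on control arrays 1 to 4 and 11.90, 12.07, 11.91 and 11.89 on OPP arrays 1 to 4. Every OPP array lay below every control array, and the change was -0.43 (SE 0.10). Of the 43 tested replication and repair genes, 27 were lower (50.7% of all probes were), with a median of -0.03 (0.04 with median scaling). Pcna was the only call, where 0.524% of all probes were called lower. Brca1, which acts in repair by homologous recombination, was at 8.24, 8.20, 8.69 and 8.31 on control arrays 1 to 4 and 8.08, 8.15, 7.86 and 7.89 on OPP arrays 1 to 4, with a change of -0.37 (SE 0.13). Its groups did not overlap but its unadjusted limma p was above 0.01. Uhrf1, which maintains DNA methylation at replication, had -0.02 (SE 0.12). Mitosis genes had 16 of 27 higher, a median of 0.03 and 0 calls, with Ccna2 at -0.31 (SE 0.12) and Cdca3 at 0.31 (SE 0.14). Control 3 had the highest median deviation of both lists, 0.32 and 0.35, and the highest level of Pcna and Brca1, and without it the change of Pcna was -0.34.

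Chaperones of the endoplasmic reticulum (ER) fold secreted proteins, and their genes are induced together by the unfolded protein response. Of 18 tested, 12 were lower with a median of -0.04, which became 0.03 when arrays were scaled to a common median (0.06 over all probes). Of the 18, 2 were called lower, against 0.524% of all probes, and 4 lay under an unadjusted p of 0.05, against 2.38% of all probes in that direction. Hspa5, the main ER chaperone (BiP), was at 12.03, 11.96, 12.07 and 11.77 on control arrays 1 to 4 and 11.73, 11.62, 11.64 and 11.65 on OPP arrays 1 to 4, with a change of -0.30 (SE 0.09). Manf, a secreted ER stress protein, was at 7.89, 7.82, 8.0 and 7.90 on control arrays 1 to 4 and 7.49, 7.62, 7.48 and 7.58 on OPP arrays 1 to 4, with a change of -0.36 (SE 0.09). The groups did not overlap in either gene. The call of Manf was lost without OPP 3 and that of Hspa5 without any array but control 4, with changes of -0.39 to -0.32 and -0.36 to -0.26 over the arrays left out in turn. The cargo and folding genes Sec23b and Selenof had -0.37 (SE 0.13) and -0.30 (SE 0.10). Hsp90b1, a further ER chaperone, was at 12.06, 12.12, 12.52 and 11.89 on control arrays 1 to 4 and 12.11, 11.78, 12.15 and 11.88 on OPP arrays 1 to 4, with -0.16 (SE 0.14) and overlapping groups, and the transcription factor gene Xbp1 had 0.09 (SE 0.12). Control 1, which had the highest pancreas deviation (0.92), also had the highest median deviation of the ER list (0.09), and the part of pancreas tissue in these results was not tested.

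The ER stress element, made of CCAAT and CCACG with 9 bases of any kind between them, is a sequence through which ER stress acts on such genes. It was found on either strand in 39 of 32851 RefSeq promoter windows of the GRCm38.p6 build, which is 0.119%, where a window is 250 bases before to 50 after a start site. Of the 18 tested ER genes, 16 had a window, and it held the element for Hspa5, Hsp90b1, Creld2 and Syvn1. Manf, which was called, and Hyou1 had no window and were not searched. The stretches with the element are shown for Hspa5 and Hsp90b1, which share it while only the former was called, with the element in capitals. That of Hspa5 lies on the plus strand at chr2:34772010-34772058 and that of Hsp90b1 on the minus strand at chr10:86705518-86705671, where the second copy, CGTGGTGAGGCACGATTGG, reads on the opposite strand.
Hspa5: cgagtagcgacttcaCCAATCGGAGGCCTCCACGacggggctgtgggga
Hsp90b1: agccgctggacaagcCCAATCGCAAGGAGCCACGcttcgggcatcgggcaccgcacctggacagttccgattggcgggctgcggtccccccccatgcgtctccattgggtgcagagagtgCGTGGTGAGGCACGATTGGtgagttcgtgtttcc
Creld2 and Syvn1, which hold the element as well, had changes of -0.04 (SE 0.09) and 0.07 (SE 0.12). A second element, ATTGG and CCACG with 1 base of any kind between them, was found in 12 windows (0.0365%). Among the tested ER genes it was found for Herpud1. A match describes the letters only.

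Of the cytosolic chaperones 17 of 25 were lower (50.7% of all probes were), with a median of -0.09 and 1 called lower (0.524% were). The call was Cct5, a subunit of the chaperonin that folds actin and tubulin, at -0.32 (SE 0.10), and it was lost without any array but control 4. Hsp90aa1 was called at its dimmer probe, at -0.39 (SE 0.10), while its brighter probe gave 0.02 (SE 0.12). The small heat shock gene Hspb1 had -0.48 (SE 0.21) and the constitutive Hspa8 -0.05 (SE 0.14). Proteasome genes were lower in 23 of 34, with a median of -0.05 (0.02 with median scaling), 0 calls and the smallest p at Psma5 (-0.40, SE 0.13) and Psmd11 (-0.29, SE 0.10). Cytosolic ribosomal protein genes were evenly split, 28 and 28 of 56, with a median of 0.00, and Rpl36 (-0.33, SE 0.12) had the smallest p among them.

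Lymphocyte lists had 0 calls among identity genes. B cell identity genes had 8 of 18 higher and a median of -0.01, with Cd24a (-0.32, SE 0.14) the member of smallest p. T cell receptor genes had 4 of 15 higher and a median of -0.14, with Cd3e at -0.24 (SE 0.19) and the interleukin-7 receptor gene Il7r at -0.25 (SE 0.19). Natural killer cell genes had 2 of 6 higher and a median of -0.15, with Nkg7 at 0.39 (SE 0.16) and the receptor gene Ncr1 at -0.80 (SE 0.33). MHC class II presentation genes had 6 of 15 higher and a median of -0.05, with the protease gene Ctss at -0.34 (SE 0.12) and Cd74 at 0.05 (SE 0.19). The chemokine genes Ccl21a and Cxcl12 of the lymphoid stroma had -0.29 (SE 0.23) and -0.06 (SE 0.17). In the plasma cell list Ell2, an elongation factor for secretory immunoglobulin transcripts, was called at -0.56 (SE 0.18), which was lost when any array other than control 4 or OPP 3 was left out, while Jchain had -0.29 (SE 0.30).

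The lymphocyte lists varied between mice within both groups. In control 3 the median deviations of the B cell, T cell, natural killer and MHC class II genes were -0.54, -0.46, -0.59 and -0.48, and in OPP 2 they were -0.39, -0.53, -0.50 and -0.37. Control 4 was the highest control for B cell, T cell and natural killer genes, at 0.38, 0.34 and 0.47. Neutrophil granule genes ran the other way, highest in control 3 (0.97) and OPP 2 (1.79) of their groups and lowest in control 4 (-0.97). Leaving out control 3 or OPP 2 moved the number of calls most, and leaving out control 4 turned their direction.

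**Figure D4:**
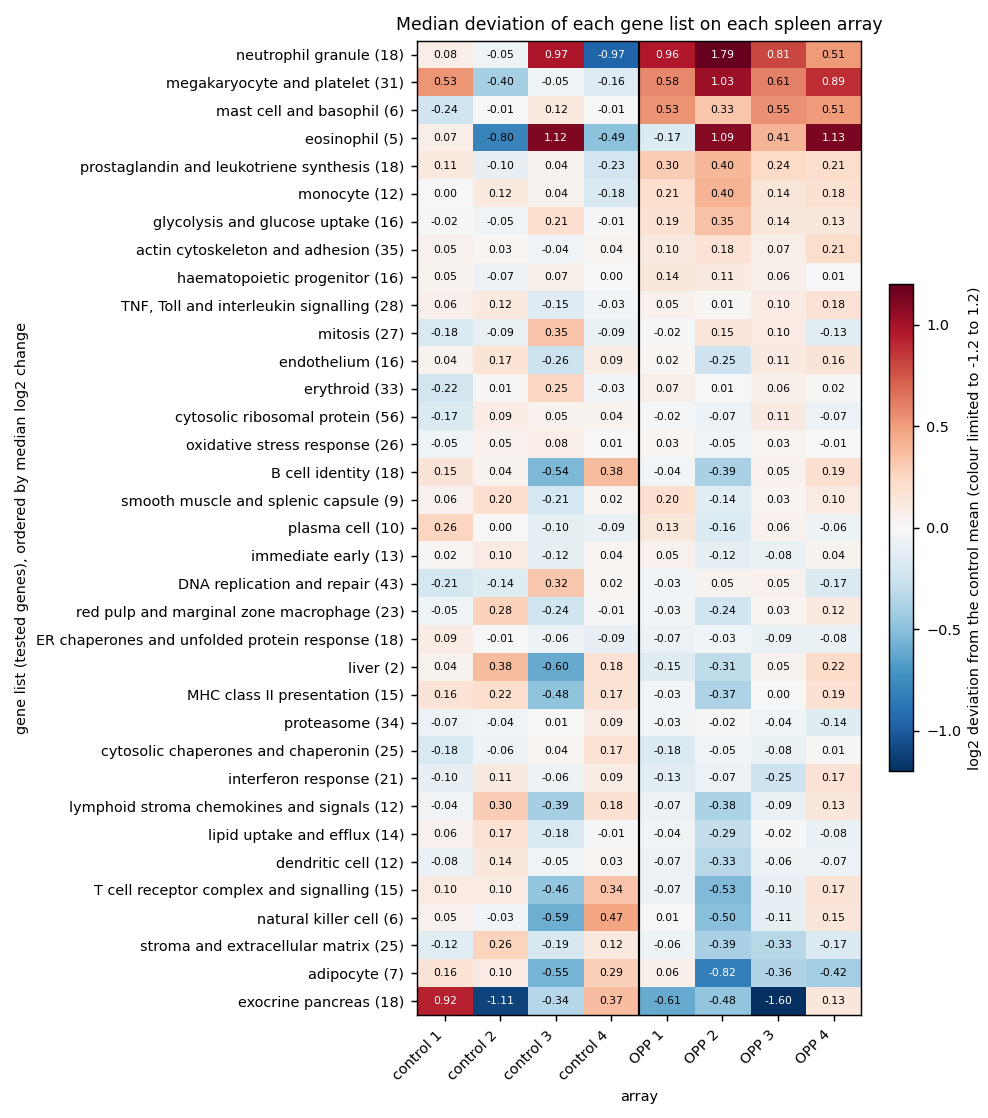
Each cell gives, for 1 gene list (rows, with the number of tested genes) on 1 spleen array (columns), the median log2 deviation of its genes from their control means. Control 3 and OPP 2 are low for B cell, T cell, natural killer and MHC class II genes, and the exocrine pancreas row spans -1.60 to 0.92.

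Immunoglobulin probes showed a wide spread between mice. Of 203 such probes 144 were tested, 76 were higher, 2 were called higher and 1 lower (1.17% and 0.524% over all probes), and their median change was 0.01. Their median within-group SD was 0.48, against 0.18 over all tested probes. Kappa variable probes were higher in 49 of 74 and heavy variable probes in 22 of 62, with medians of 0.09 and -0.06. The probe for Igkv4-60 was at 7.73, 8.44, 7.42 and 8.02 on control arrays 1 to 4 and 6.75, 6.81, 6.45 and 7.10 on OPP arrays 1 to 4, with a change of -1.13 (SE 0.21) and no overlap. The probe for Igkv4-63 was at 9.31, 8.29, 6.84 and 7.59 on control arrays 1 to 4 and 9.18, 9.51, 10.59 and 10.08 on OPP arrays 1 to 4, with a change of 1.83 (SE 0.47), and here control 1 lay above OPP 1. The constant region probe Ighg2C had 1.08 (SE 0.39). Some variable genes are close to each other in sequence, so a probe may read several.

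The remaining leading genes had no list in common. Higher were Tacc1, a coiled-coil gene of the centrosome (0.40, SE 0.07, and 0.06, SE 0.10, at its second probe), the leucine-rich repeat gene Lrrn3 (0.61, SE 0.13) and the galectin-like gene Lgalsl (0.67, SE 0.16), where control 1 reached the OPP values. Tspyl1 was lower, at 7.53, 7.55, 7.28 and 7.26 on control arrays 1 to 4 and 7.0, 6.77, 6.92 and 6.69 on OPP arrays 1 to 4, with a change of -0.56 (SE 0.12). A probe that the study's list names Gpr30, the G protein-coupled oestrogen receptor, had -0.71 (SE 0.14), was detected on all 4 control arrays and 0 OPP arrays, and its control mean was at least 1.35-fold higher than the OPP floor. The membrane glycoprotein gene Gpm6b had -0.54 (SE 0.13), the methionine adenosyltransferase subunit gene Mat2b -0.56 (SE 0.15) and 2610009E16Rik -0.54 (SE 0.13). Samhd1, which degrades deoxynucleotides, had -0.39 (SE 0.10) at its dimmer probe and -0.07 (SE 0.11) at the brighter probe.

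Erythroid genes were higher in 20 of 33, with a median of 0.03 and 0 calls at the counted probes, and Slc4a1 (the anion exchanger of red cells) had 0.09 (SE 0.14), while Rhd and the transporter gene Abcg2 had -0.45 (SE 0.15) and -0.35 (SE 0.11) at unadjusted p values between 0.01 and 0.05. Outside this count, Gmpr, also an erythroid list gene, was called higher (0.89, SE 0.16) at a probe that only the study's list names. Car2 of the same list was called lower (-0.75, SE 0.21) at a probe other than its brightest. Oxidative stress response genes were higher in 12 of 26, with a median of -0.01, with Mgst1 the only call, and Txnrd1, a thioredoxin reductase gene, had -0.22 (SE 0.08). Interferon response genes were lower in 17 of 21, with a median of -0.09 and 0 calls, and Ifi35 and the regulator gene Irf7 had -0.40 (SE 0.15) and -0.29 (SE 0.17). Immediate early genes had 6 of 13 higher and a median of -0.02, with the AP-1 gene Fosl2 at 0.53 (SE 0.17) and Egr1 at -0.47 (SE 0.23). The genes that the study used as references, Srsf9, Guk1 and Hnrnpab, had 0.01 (SE 0.07), 0.02 (SE 0.10) and -0.05 (SE 0.11).

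Single genes were also compared by a two-sided exact permutation test of the group means over all 70 splits of the 8 arrays. The smallest p that this design allows is 0.0286, which is reached by every gene without overlap between groups, such as Npy, Zyx, Pcna, Col3a1, Sparc, Hspa5, Manf and Brca1. Most of these genes were named for their small limma p in the same data, so the exact p adds no separate support. Under random labels non-overlap has this same probability, and 3.6% of all tested probes did not overlap.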

How the data were processed

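RNA of 8 mouse spleens was hybridised to single-colour Illumina arrays. The deposited table holds raw intensity values with a detection p-value per probe, which the authors exported from BeadStudio 1.5.1.3 without normalisation. The authors' own normalised table holds intensities after rank invariant normalisation and was used as an alternative. For this, values below 10 were set to 10 here and log2 was then taken. Their fold changes were not used.

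Here the 8 spleen arrays were background corrected by limma 3.58.1 in R 4.3.3 (nec with detection p, offset 16) and quantile normalised. Probes with a detection p under 0.01 on 3 or more arrays of either group were kept, so a probe detected in a single group entered through that group. Groups were compared by lmFit and eBayes with a trend, with Benjamini-Hochberg adjustment over the 8582 probes. The number of arrays limits the precision. The 15 leading probes per direction outside the platelet and granulocyte lists and, per list, the 2 of smallest p and the 2 of highest signal were candidates for naming, not all of which are given, and further genes were named after their values were seen. A gene with several probes was counted in its list by its brightest tested probe, among the probes that platform annotation names. The members and lists were chosen with earlier results of these data known. Probes were named from platform annotation, and 93 only from the study's list of called genes. A bound ("at least") sets a group with no detected array at the lowest detected signal of each array. Promoters are those of RefSeq. The procedure was tested on simulated data. P-values measure the spread between these mice only.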

Additional observations from a re-analysis of the deposited data

Results flagged for a closer look

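In each group of 4 arrays the highest or lowest value was set against the other 3 by Dixon's criterion, for 264 groups of named probes and 70 groups of list medians. It marked 12 and 5 of them, and chance marks about 1 in 20 groups. All values are log2 intensities, or log2 deviations from the control mean for lists.

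Control 3 stood above the other controls for Pcna (12.62 against 12.25 to 12.31) and the spindle gene Nusap1 (12.31 against 11.82 to 11.89), and below them for Gpm6b (6.61 against 6.89 to 6.90). In the same array the median of MHC class II genes was -0.48 (others 0.16 to 0.22) and that of glycolysis genes 0.21 (others -0.05 to -0.01). OPP 2 stood above the other OPP arrays for Pcna (12.07 against 11.89 to 11.92) and below them for the co-stimulatory gene Cd86 (8.97 against 9.48 to 9.58), the desaturase gene Scd1 (9.77 against 10.35 to 10.46) and the dendritic cell genes (-0.33 against -0.07 to -0.06).

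Control 1 was high for Xbp1 (12.73 against 12.24 to 12.31) and low for ribosomal protein genes (-0.17 against 0.04 to 0.09). Control 4 was low for Mgst1 (8.98 against 9.56 to 9.62), a gene called higher with OPP. OPP 1 was high for Adipoq (6.41 against 5.36 to 5.48), the only OPP array on which that probe was detected. OPP 3 was high for Rplp1 (15.30 against 15.08 to 15.10). OPP 4 was low for the reference genes Guk1 (9.34 against 9.59 to 9.64) and Hnrnpab (12.88 against 13.20 to 13.22) and for proteasome genes (-0.14 against -0.04 to -0.02).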

How the results depend on the processing

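The 145 probes called at an unadjusted p under 0.01 became 282 without the detection filter, which tested 23982 probes, and 268 with array weights. Over the arrays left out in turn the count was 72 to 304, and the number past the adjusted threshold 0 to 15. That number, 0 in the main comparison, was 15 with median scaling and 24 with all 23 arrays in 1 fit. The causes were not tested. Other settings kept the first count between 106 and 193, with 128 of 134 calls of the authors' normalised values and 68 of 106 calls of the methods' t-test shared with the main comparison. The replicate block gave 157 calls, of which 96 were shared, and 0 adjusted calls. The replicate numbers mark no shared animal, and correlations of same-numbered arrays were 0.11, -0.29, 0.13 and 0.32, so the numbers were not taken to pair the mice, and only controls 1 and 4 correlated best with their own number. A block for the BeadChip could not be run because the headers name no chip for each array. For named probes, 85 of 2372 values, in 30 of 132 probes, had another sign than in the main comparison, none of them at an unadjusted p under 0.05 there. Over 20 alternatives each, list medians ran from 0.09 to 0.21 for actin, 0.13 to 0.25 for glycolysis, 0.09 to 0.34 for prostaglandin, 0.16 to 0.29 for monocyte, -0.35 to -0.16 for stroma and -0.19 to -0.04 for lipid genes. With median scaling the medians of the ER, proteasome, replication (0.04) and macrophage (0.02) lists turned, while the median over all tested probes moved from -0.002 to 0.06. The replication median also turned with array weights (0.02) and without control 3 (0.07) or OPP 4 (0.02), the macrophage median without control 2 (0.07) or OPP 2 (0.03), the natural killer median without control 4 (0.01) or OPP 2 (0.05), and the MHC class II median without control 2, control 4 or OPP 2 (0.02 each). Leaving out the genes of the platelet and granulocyte lists was chosen after seeing the data.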
